A study of Mus musculus with 12 samples.

Results

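IAP LTRs are the long terminal repeats (LTRs) of intracisternal A particle (IAP) elements, a family of mouse endogenous retroviruses of the ERVK class. Their CpG methylation was followed in embryonic stem cells, in primordial germ cells (PGCs) and in PGC-like cells (PGCLCs). The rows were chosen by name: every repeat row whose element name began with IAPLTR, whose class was LTR/ERVK and which had a level in all 12 libraries. Of 224 rows with such a name, 146 had a level in every library, among 34707 repeat rows and 133311 features of all kinds with that property. The name also takes in internal parts of the elements. Of the 146 rows, 63 carried LTR names in 8 subfamilies and 83 carried internal names, 56 as IAPLTR3-int and 27 as IAPLTR4_I, so the internal rows are described apart.

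Reduced representation bisulfite sequencing (RRBS) was applied to 6 groups of 2 libraries, all labelled strain C57BL6. Bisulfite converts unmethylated cytosine, and the MspI digestion used in RRBS selects CpG-rich fragments. Stem cells were female embryonic stem cells (ESCs) from fertilized blastocysts and parthenogenetic ESCs (pESCs) from blastocysts of strontium-activated oocytes. Germ cells were PGCs of female embryos at E9.5 and at E12.5, and PGCLCs induced from either line (ESC-PGCLCs and pESC-PGCLCs). According to the study's methods, both stem cell lines came from mice with a β-Actin-GFP transgene, carried by the derived PGCLCs too, and were kept in serum and LIF on mouse feeder fibroblasts, with several passages in medium with kinase inhibitors before induction. PGCLCs were induced through epiblast-like cells (activin A and bFGF, then BMP4, SCF, EGF and LIF) and sorted for SSEA1 and CD61, and the PGCs were sorted by the same antibodies or by magnetic beads against SSEA1. The study calls its RRBS libraries of a group biological replicates. The labels do not say how many lines or embryos stand behind them, and the p-values measure the spread between these libraries. The epiblast-like stage was not measured, and methylation levels hold no marker of a cell type. The pESC label was checked at promoters that carry methylation from the oocyte: Mest was at 6.74% ± 0.0252 in ESCs and 46.2% ± 2.04 in pESCs, and Zrsr1 at 1.78% and 40.2% (SD, n = 2). Peg10 (3.38% and 36.8%), Sgce (3.30% and 37.4%) and Snrpn (39.6% and 83.0%) were also higher in pESCs. E9.5 PGCs had 48.8% at Mest, 50.6% at Zrsr1, 52.9% at Peg10, 54.4% at Sgce and 62.8% at Snrpn. Outside Snrpn, pESCs thus lay below E9.5 PGCs and ESCs far below them. The check rests on the difference between the lines, and the cause of the low levels was not tested.

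An IAP element is flanked by an LTR at each end, and the LTR carries the promoter of the provirus. In somatic cells IAP LTRs are densely methylated and silent. The methylation is kept up by the maintenance methyltransferase Dnmt1, and in early embryos and stem cells by KRAB zinc-finger proteins that bring Trim28 and the H3K9 methyltransferase Setdb1 to the element. PGCs lose most of their genomic methylation on the way to the gonad, and IAP elements are known as sequences that resist this loss in part. Subfamily names such as IAPLTR1 and IAPLTR2 mark related LTR sequences in a repeat library. A number pair in a row's name, as in IAPLTR2b:1-320, is the stretch of the consensus covered by the annotated copies. Copies with the same name and stretch share a row, no row has a genome position, and the read depth behind a level is unknown. Levels are methylated CG calls over all CG calls, given here in percent, and a subfamily's level is the mean over its rows.

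**Figure D1:**
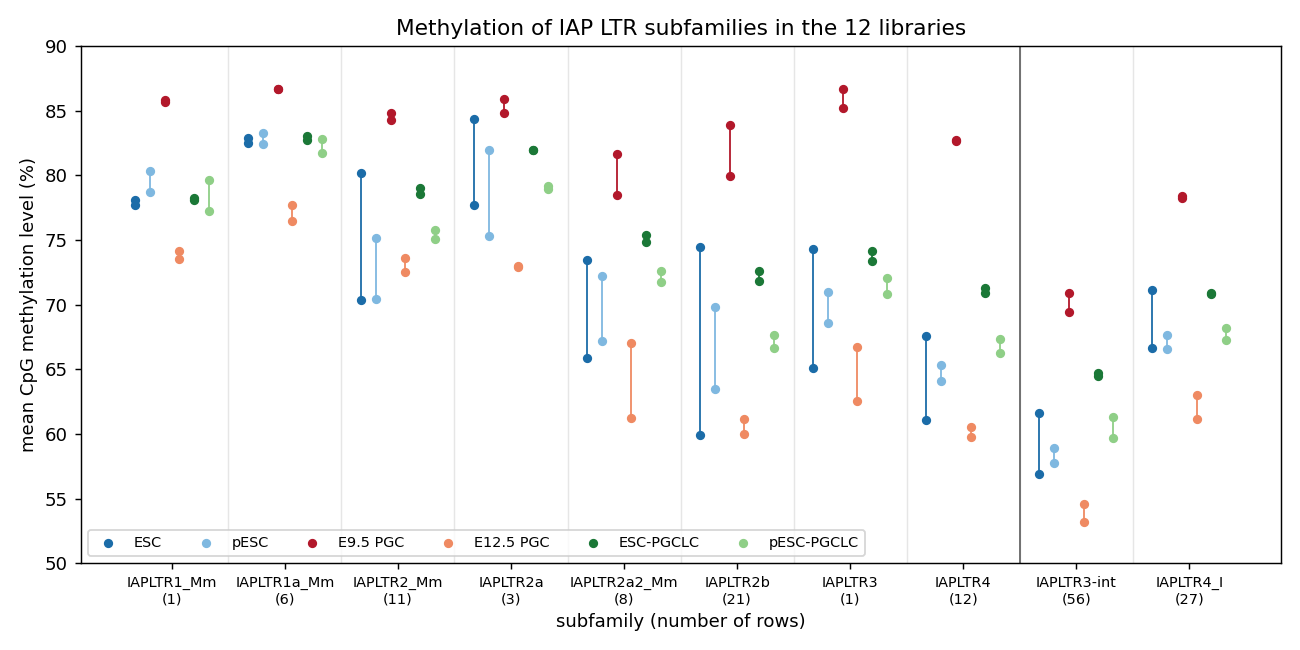
Mean methylation level in percent of the 10 IAPLTR names in each of the 12 libraries (points, 2 per group joined by a line, axis from 50 to 90%), with the number of rows in brackets. E9.5 PGCs lie at the top and E12.5 PGCs at or near the bottom of each name, and the 2 ESC libraries of IAPLTR2b are 14.6 points apart.

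The highest level was found in E9.5 PGCs and the lowest in E12.5 PGCs. Over the 63 LTR-named rows, ESCs had 75.3% and 66.1% in the 2 libraries and pESCs 72.2% and 68.0%. E9.5 PGCs had 83.5% and 82.5%, against 64.9% and 66.3% at E12.5. ESC-PGCLCs had 74.9% and 75.3%, and pESC-PGCLCs 71.9% and 70.9%. Both E9.5 libraries stood above every other library and both PGCLC groups stood between the PGC stages, while an ESC library reached down into the range of the E12.5 PGCs. The 83 internal rows followed the same order at lower levels, with group means of 62.4% ± 3.28 in ESCs, 61.2% ± 0.820 in pESCs, 72.8% ± 0.668 at E9.5, 56.6% ± 0.243 at E12.5, 66.6% ± 0.0896 in ESC-PGCLCs, and 62.9% ± 0.992 for pESC-PGCLCs (SD, n = 2).

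**Figure D2:**
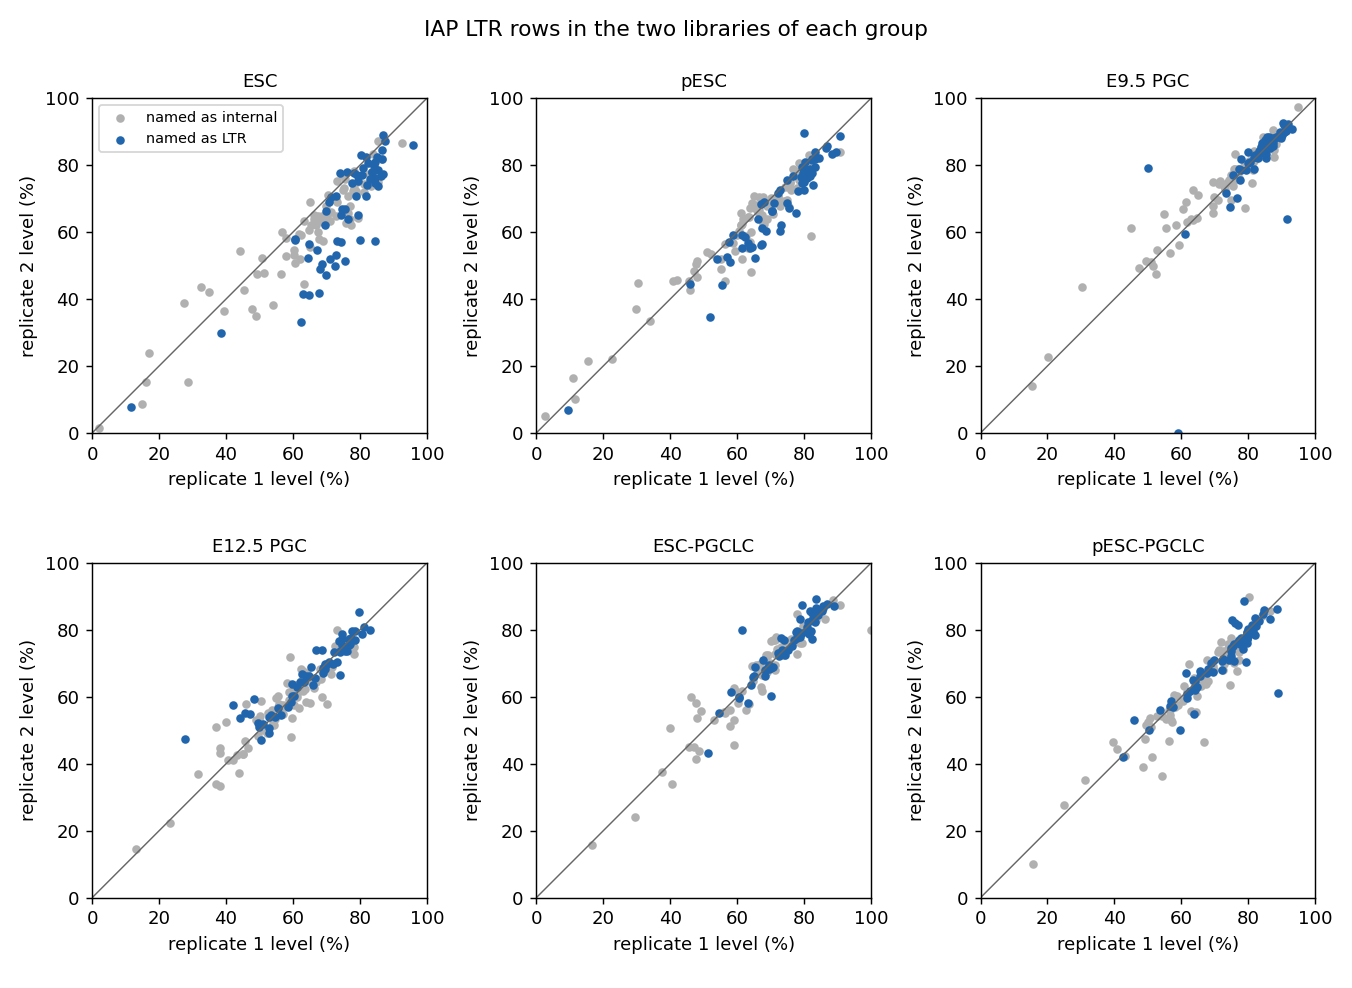
Methylation level in percent of each of the 146 rows in replicate 1 (horizontal) and replicate 2 (vertical) of each group, with LTR-named rows in blue, internal rows in grey and the line of equal levels. Most ESC rows lie below the line, 127 of 146 being higher in replicate 1, and 1 row of E9.5 PGCs is at 59.0% in replicate 1 and at 0 in replicate 2.

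The error of these levels differed between groups. In ESCs, replicate 1 exceeded replicate 2 in 127 of 146 rows, by 6.63 points on average and by 9.27 points over the LTR-named rows, and 25.3% of the rows differed by at least 10 points. The gap was not particular to IAP rows. Of the 34561 other repeat rows, 29547 were higher in ESC replicate 1, by 8.54 points on average over all of them, and 41.2% differed by at least 10 points. In pESCs 8.22% of the IAP rows differed by that much, and in the 4 PGC and PGCLC groups between 2.74% and 6.16%. The ESC gap was uneven over subfamilies. IAPLTR2b had 74.5% in ESC replicate 1 and 59.9% in replicate 2, and IAPLTR2_Mm had 80.1% and 70.3%. IAPLTR1a_Mm had 82.9% and 82.5%, so its 6 rows gave nearly the same level in both libraries. Each comparison with ESCs below therefore rests on 2 libraries that stand apart.

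IAPLTR1a_Mm was the highest subfamily in every group. Its 6 rows all start at position 1 of the consensus, and their mean was 82.7% ± 0.269 in ESCs, 82.9% ± 0.592 in pESCs, 86.7% ± 0.0215 at E9.5, 77.1% ± 0.905 at E12.5, 82.9% ± 0.249 in ESC-PGCLCs, and 82.3% ± 0.775 for pESC-PGCLCs (SD, n = 2). The single IAPLTR1_Mm row, 1-367, was at 77.9% ± 0.283 in ESCs, 79.5% ± 1.12 in pESCs, 85.7% ± 0.103 at E9.5, 73.8% ± 0.401 at E12.5, 78.2% ± 0.0739 in ESC-PGCLCs, and 78.4% ± 1.70 for pESC-PGCLCs. The group means spanned 9.62 points in IAPLTR1a_Mm and 11.9 points in IAPLTR1_Mm.

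The names beginning with IAPLTR2 covered a wide range. IAPLTR2a, with 3 rows, was second highest in ESCs at 84.4% and 77.7% in the 2 libraries, had 81.9% and 75.3% in pESCs, 84.8% and 85.9% at E9.5, 73.0% and 72.9% at E12.5, 82.0% and 81.9% in ESC-PGCLCs, and 78.9% and 79.2% for pESC-PGCLCs. IAPLTR2_Mm, with 11 rows, had group means of 75.2% ± 6.94 in ESCs, 72.8% ± 3.31 in pESCs, 84.6% ± 0.391 at E9.5, 73.1% ± 0.765 at E12.5, 78.8% ± 0.332 in ESC-PGCLCs, and 75.4% ± 0.485 for pESC-PGCLCs. In both names the E12.5 libraries lay below the E9.5 libraries by more than the gap between replicates.

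IAPLTR2a2_Mm, with 8 rows, had 69.7% ± 5.38 in ESCs, 69.7% ± 3.53 in pESCs, 80.0% ± 2.27 at E9.5, 64.1% ± 4.09 at E12.5, 75.1% ± 0.393 in ESC-PGCLCs, and 72.2% ± 0.638 for pESC-PGCLCs. IAPLTR2b, the LTR name with the most rows (21, of which 19 start at position 1), had 67.2% ± 10.3 in ESCs, 66.7% ± 4.46 in pESCs, 81.9% ± 2.79 at E9.5, 60.6% ± 0.815 at E12.5, 72.2% ± 0.581 in ESC-PGCLCs, and 67.1% ± 0.742 for pESC-PGCLCs. At E9.5 the libraries of the 2 names overlapped, and at E12.5 those of IAPLTR2b lay below both of IAPLTR2a2_Mm, the nearest of them by less than the gap between replicates. The E9.5 overlap rests on 1 IAPLTR2b row, 1-293, listed at 0 in replicate 2. Without it the IAPLTR2b libraries had 85.2% and 84.0% at E9.5, above both of IAPLTR2a2_Mm.

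Among the LTR names, IAPLTR3 was near the top in E9.5 PGCs, whereas IAPLTR4 stood below most of them. Both had far lower levels in E12.5 PGCs, as did IAPLTR2b. The single IAPLTR3 row, 1-326, had 74.3% and 65.1% in ESCs, 70.9% and 68.6% in pESCs, 86.6% and 85.2% at E9.5, 62.5% and 66.7% at E12.5, 73.4% and 74.1% in ESC-PGCLCs, and 72.1% and 70.8% for pESC-PGCLCs. The 12 IAPLTR4 rows averaged 67.5% and 61.1% in ESCs, 65.3% and 64.1% in pESCs, 82.7% and 82.6% at E9.5, 59.8% and 60.6% at E12.5, 70.9% and 71.3% in ESC-PGCLCs, and 67.4% and 66.2% for pESC-PGCLCs. With all rows counted, IAPLTR4 had the widest span of group means of the 10 names, 22.5 points, and IAPLTR2b had 21.3 points. This ranking rests on the IAPLTR2b row 1-293. Without that row the highest and lowest IAPLTR2b group means were 84.6% and 60.9%, further apart than those of IAPLTR4. Among the internal names, IAPLTR4_I had 78.3% ± 0.0843 at E9.5 and 62.1% ± 1.32 at E12.5, and IAPLTR3-int, the lowest name in every group, had 70.2% ± 1.03 and 53.9% ± 0.995.

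The order of the LTR subfamilies was therefore not the same in the 2 PGC stages. At E9.5 the means ran from 86.7% in IAPLTR1a_Mm through 85.9% in IAPLTR3, 85.7% in IAPLTR1_Mm, 85.3% in IAPLTR2a and 84.6% in IAPLTR2_Mm to 82.7% in IAPLTR4, 81.9% in IAPLTR2b and 80.0% in IAPLTR2a2_Mm. IAPLTR3, IAPLTR1_Mm, IAPLTR2a and IAPLTR2_Mm overlapped with their neighbours, and IAPLTR2b overlapped with IAPLTR4 and with IAPLTR2a2_Mm. Without its row 1-293 IAPLTR2b had 85.2% and 84.0% at E9.5 and lay above both of these names. At E12.5 a gap had opened: IAPLTR1a_Mm (77.1%), IAPLTR1_Mm (73.8%), IAPLTR2_Mm (73.1%) and IAPLTR2a (72.9%) stood apart from IAPLTR3 (64.6%), IAPLTR2a2_Mm (64.1%), IAPLTR2b (60.6%) and IAPLTR4 (60.2%). Of these, IAPLTR3 overlapped with IAPLTR2a2_Mm, and IAPLTR2b with IAPLTR4. In ESCs all neighbours in the order overlapped.

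The first test asked how far IAP LTRs lost methylation in PGCs between E9.5 and E12.5. Most rows fell. A row was called when its difference in log2 odds of methylation had an adjusted p under 0.05 (limma, Benjamini-Hochberg over 137202 features) and the group means were at least 10 points apart. By this rule 118 of the 146 rows (80.8%) fell and none rose, against 49.6% of all features called lower, 84.7% of the rows of other ERVK LTRs and 86.5% of all other repeat rows. In sign, 143 of the 146 rows were lower at E12.5. The median difference was -17.1 points over the IAP rows, -21.8 over other ERVK LTRs, -19.5 over all other repeats and -11.5 over all features. On the log2 odds scale the IAP median was -1.30, against -0.86 for all features. With each library centred on its own median the comparison shifted by 1.12 log2 units, and 44 rows were called lower and 1 higher. For centred counts, here and below, the share of all features called is not given, so they have no background to be read against.

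**Figure D3:**
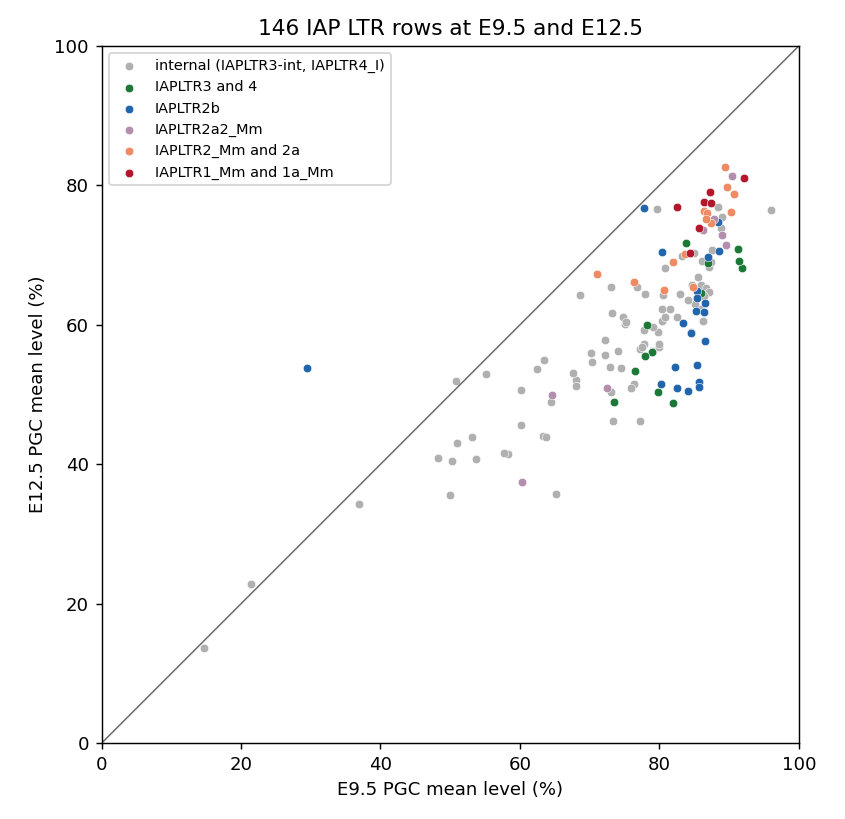
Mean methylation level in percent of each of the 146 rows in E9.5 PGCs (horizontal) and E12.5 PGCs (vertical), coloured by subfamily, with the line of equal levels. 143 rows lie below the line, IAPLTR1a_Mm, IAPLTR2_Mm and IAPLTR2a closer to it than IAPLTR2b and IAPLTR4.

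The subfamilies differed in the size of the fall. All 12 IAPLTR4 rows fell, with a median of -22.7 points, and 18 of 21 IAPLTR2b rows, with a median of -23.3 points. IAPLTR2_Mm had 8 of 11 rows called and a median of -10.8 points, IAPLTR2a 3 of 3 and -12.8 points, and IAPLTR2a2_Mm 6 of 8 and -15.4 points. IAPLTR1a_Mm had 2 of 6 rows called and a median of -9.27 points, and the other 4 rows passed the p threshold with differences under 10 points. Of the internal rows, 45 of 56 IAPLTR3-int rows and 22 of 27 IAPLTR4_I rows fell, with medians of -16.9 and -16.8 points.

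In points, the largest falls were in IAPLTR2b. IAPLTR2b:1-357 had 86.1% and 85.3% at E9.5 against 52.9% and 49.3% at E12.5, a fall of 2.45 ± 0.13 (SE) log2 odds (adjusted p = 7.47e-05). IAPLTR2b:1-354 had 85.4% and 86.0% against 52.7% and 50.8%. IAPLTR2b:1-320 had 84.2% and 84.0% against 50.0% and 51.1%. By group mean, both PGCLC groups and both stem cell groups also lay well below E9.5 in these 3 rows. For IAPLTR2b:1-357 the ESC libraries had 67.7% and 41.9%, the pESC libraries 57.8% and 50.9%, ESC-PGCLCs 65.3% and 68.8%, and pESC-PGCLCs 64.1% and 62.0%. Not every IAPLTR2b row moved that far. IAPLTR2b:200-327, which lacks the start of the LTR, went from 88.4% in both E9.5 libraries to 76.0% and 73.6% (adjusted p = 0.000191).

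One IAPLTR2b row was unstable. IAPLTR2b:1-293 had 59.0% in E9.5 replicate 1 and was listed at 0 in replicate 2, with 48.4% and 59.3% at E12.5 and between 47.3% and 80.0% elsewhere. Its higher mean at E12.5 rests on the listed 0 (adjusted p = 0.248). Without that row the other 20 IAPLTR2b rows had 85.2% and 84.0% at E9.5 and a mean of 60.9% at E12.5.

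In IAPLTR4, the row 1-324 had 81.6% and 82.4% at E9.5 against 50.5% and 47.2% at E12.5, a difference of -33.1 points (adjusted p = 0.000149). Its ESC libraries had 68.8% and 50.5% and its pESC libraries 63.1% and 56.7%. In IAPLTR3:1-326 the difference was -21.3 points (adjusted p = 0.000108). The internal row with the longest stretch, IAPLTR3-int:1-6802, went from 75.9% and 78.5% to 40.0% and 52.5% (adjusted p = 0.00106). IAPLTR4_I:157-1440 went from 81.4% and 78.5% to 57.0% and 57.5%, by -22.7 points (adjusted p = 0.000283).

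The highest subfamily also moved. IAPLTR1a_Mm:1-336 had 92.0% and 92.4% at E9.5 against 81.1% and 80.9% at E12.5, a fall of 1.37 log2 odds (adjusted p = 0.000294), and between 86.3% and 90.6% in the other 8 libraries. At E12.5 it was thus lower than in any other group while above 80%. IAPLTR1a_Mm:1-327 went from 85.3% and 83.5% to 74.0% and 66.5%, and IAPLTR1_Mm:1-367 by -11.9 points (adjusted p = 0.00288 and 0.00026). IAPLTR2_Mm:1-474 had 90.1% and 88.9% at E9.5 against 79.9% and 85.3% at E12.5, which was not called (adjusted p = 0.105). The 3 IAPLTR2a rows were alike, and the row with the largest E12.5 gap, 318-411, went from 79.8% and 84.0% to 69.6% and 68.4%. After centring, neither IAPLTR1a_Mm row was called, and the differences turned to 0.071 log2 odds in IAPLTR1_Mm:1-367, 0.34 in IAPLTR2_Mm:1-474 and 0.12 in IAPLTR2a:318-411.

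Among the internal rows that were not called were 2 low ones. IAPLTR3-int:5927-6801, at the end of the internal part, had 15.3% and 14.1% at E9.5 against 13.0% and 14.4% at E12.5 (adjusted p = 0.734, and 0.00881 at a difference of 1.01 log2 odds after centring), and at most 16.6% in the other 8 libraries. IAPLTR3-int:5593-6801 had 20.1% and 22.8% against 23.3% and 22.3%. Both rows were low in all 12 libraries, and 5593-6801 had 24.1% to 29.6% in the 4 PGCLC libraries, above the other 8. Sharing the end of the internal consensus did not give a common level: IAPLTR3-int:5946-6801, a row chosen here after its values were seen, had 65.0% and 71.2% at E9.5 against 49.8% and 52.7% at E12.5.

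**Figure D4:**
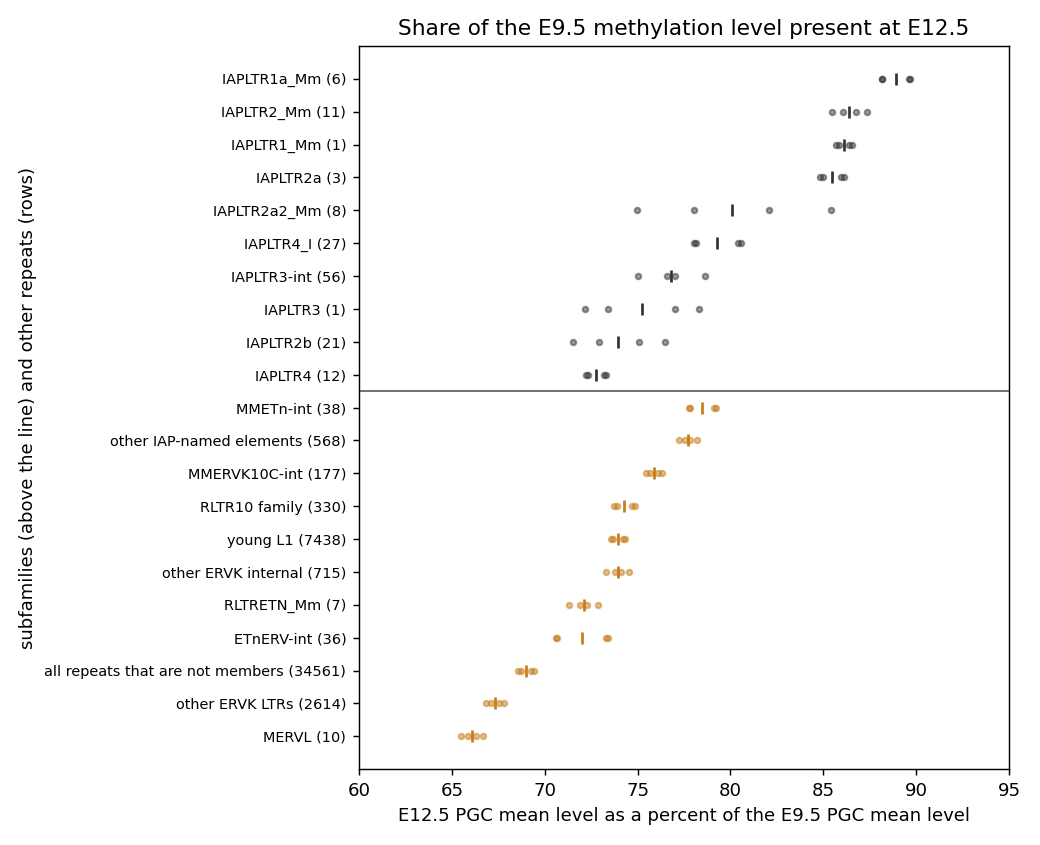
Share of the E9.5 level present at E12.5, in percent, for each IAPLTR name and for comparison sets of repeats (bars, ratio of the 2 group means, small points, the 4 pairs of 1 E9.5 and 1 E12.5 library, axis from 60 to 95%). IAPLTR1a_Mm has 88.9%, IAPLTR2b 74.0% and IAPLTR4 72.8%, against 67.3% for other ERVK LTRs and 69.0% for all other repeats.

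As a share of the E9.5 level, the IAP rows kept 78.3% at E12.5, with the 4 pairs of libraries between 77.7% and 78.8%. The LTR-named rows kept 79.0% and the internal rows 77.7%. IAPLTR1a_Mm kept 88.9%, IAPLTR2_Mm 86.4%, IAPLTR1_Mm 86.1%, IAPLTR2a 85.5% and IAPLTR2a2_Mm 80.1%. IAPLTR3 kept 75.2%, IAPLTR2b 74.0% and IAPLTR4 72.8%, and IAPLTR2b without the row 1-293 kept 72.1%. The intervals over library pairs of the first 4 names (84.8% to 89.7%) did not reach those of IAPLTR3, IAPLTR2b and IAPLTR4 (71.5% to 78.3%), while IAPLTR2a2_Mm, at 75.0% to 85.4%, spanned both. Of the 146 rows, 96 kept at least 75% and none kept under 50%.

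Other repeats measured in the same libraries give the scale. The 2614 rows of other ERVK LTRs kept 67.3% and the 34561 other repeat rows 69.0%. Other IAP-named elements kept 77.7%, and the internal rows of MMETn, another ERVK family, kept 78.5%. LINE-1 elements of young subfamilies kept 73.9%, the RLTR10 family 74.3% and MERVL 66.1%. The IAPLTR2b and IAPLTR4 shares lay close to those of the RLTR10 family and young LINE-1 elements. These shares were described and not tested. The sets started from unlike levels, at E9.5 83.5% and 82.5% in LTR-named IAP rows against 65.9% and 65.7% in other ERVK LTRs. A ratio of levels is therefore not a comparison of their falls on the log2 odds scale.

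The LTR-named IAP rows were above other ERVK LTRs in all 12 libraries. The margin was 27.5 ± 0.487 points in ESCs, 27.6 ± 1.36 in pESCs, 17.3 ± 0.519 at E9.5, 21.3 ± 0.645 at E12.5, 21.5 ± 0.181 in ESC-PGCLCs, and 21.9 ± 0.455 for pESC-PGCLCs (SD, n = 2). Other ERVK LTRs had 48.2% and 38.2% in the ESC libraries and 65.9% and 65.7% at E9.5, so the margin was smallest where both sets were highest.

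The next comparisons set the PGCLCs against the PGC stages they are meant to resemble. They share the PGC and PGCLC libraries, so their results are not independent of each other. Both PGCLC groups were below E9.5 PGCs. In ESC-PGCLCs 33 of the 146 rows (22.6%) fell below E9.5 and none rose, against 29.6% of all features called lower, 55.9% of other ERVK LTR rows and 43.4% of other repeats. The median difference was -6.97 points. In pESC-PGCLCs 74 rows (50.7%) fell and none rose, against 40.2% of all features, 73.8% of other ERVK LTRs and 64.9% of other repeats, with a median of -10.4 points. After centring 21 rows were called lower and 2 higher in ESC-PGCLCs, where the median turned to 0.098 log2 odds with 84 rows higher in sign, and 29 lower and none higher in pESC-PGCLCs. The shifts by centring were -0.66 and -0.80 log2 units, against median differences of -0.44 and -0.60 log2 odds over all features.

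Among the LTR names, the rows that fell were mostly IAPLTR2b and IAPLTR4 rows. In ESC-PGCLCs they were 11 of 21 IAPLTR2b rows, 7 of 12 IAPLTR4 rows, 1 of 11 IAPLTR2_Mm rows and the IAPLTR3 row. Of the internal rows, 6 of 56 IAPLTR3-int and 7 of 27 IAPLTR4_I rows fell there. In pESC-PGCLCs the LTR rows were 16 IAPLTR2b rows, 11 IAPLTR4 rows, 4 IAPLTR2_Mm rows, 2 IAPLTR2a2_Mm rows and the IAPLTR3 row. The internal rows were 25 of 56 IAPLTR3-int and 15 of 27 IAPLTR4_I rows. No row of IAPLTR1_Mm, IAPLTR1a_Mm or IAPLTR2a was called in either comparison. IAPLTR1a_Mm had 82.7% and 83.1% in ESC-PGCLCs, and 82.8% and 81.7% for pESC-PGCLCs, against 86.7% in both E9.5 libraries. The PGCLC libraries thus stood below E9.5 in that subfamily too, by less than the 10-point minimum.

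Against E12.5 PGCs the PGCLCs were higher. In ESC-PGCLCs 58 of 146 rows (39.7%) rose above E12.5 and none fell, against 22.2% of all features called higher and 38.7% of other repeats, with a median of 9.80 points. They were 11 IAPLTR2b, 8 IAPLTR4, 3 IAPLTR2a2_Mm, 1 IAPLTR2a, 26 IAPLTR3-int and 9 IAPLTR4_I rows. With centring 14 rows were called higher. In pESC-PGCLCs 16 rows (11.0%) rose and none fell, against 6.81% of all features and 11.5% of other repeats, with a median of 6.24 points. Of these, 4 were IAPLTR2b, 1 was IAPLTR4, 9 were IAPLTR3-int and 2 were IAPLTR4_I. The limma count was 0 when any 1 of the 4 libraries compared was left out (66 to 75 rows had an unadjusted p under 0.05), with centring (27 rows) and in the fit of all 12 libraries (51 rows).

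Origin was compared directly. Between pESCs and ESCs no row was called, as for all features (0%), and no IAP row had an unadjusted p under 0.05 (limma, 4 libraries). The differences ran from -8.56 to 13.6 points, with a median of -0.81, and the smallest adjusted p over all features was 0.0795, so this comparison called no feature at all. Between pESC-PGCLCs and ESC-PGCLCs no IAP row was called either, against 0.0948% of all features. In sign 131 of 146 rows were lower in pESC-PGCLCs, with a median of -3.56 points, and 49 had an unadjusted p under 0.05. The other repeats had a median of -3.55 points in the same comparison, so the small deficit of pESC-PGCLCs was of the same size outside IAP elements.

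**Figure D5:**
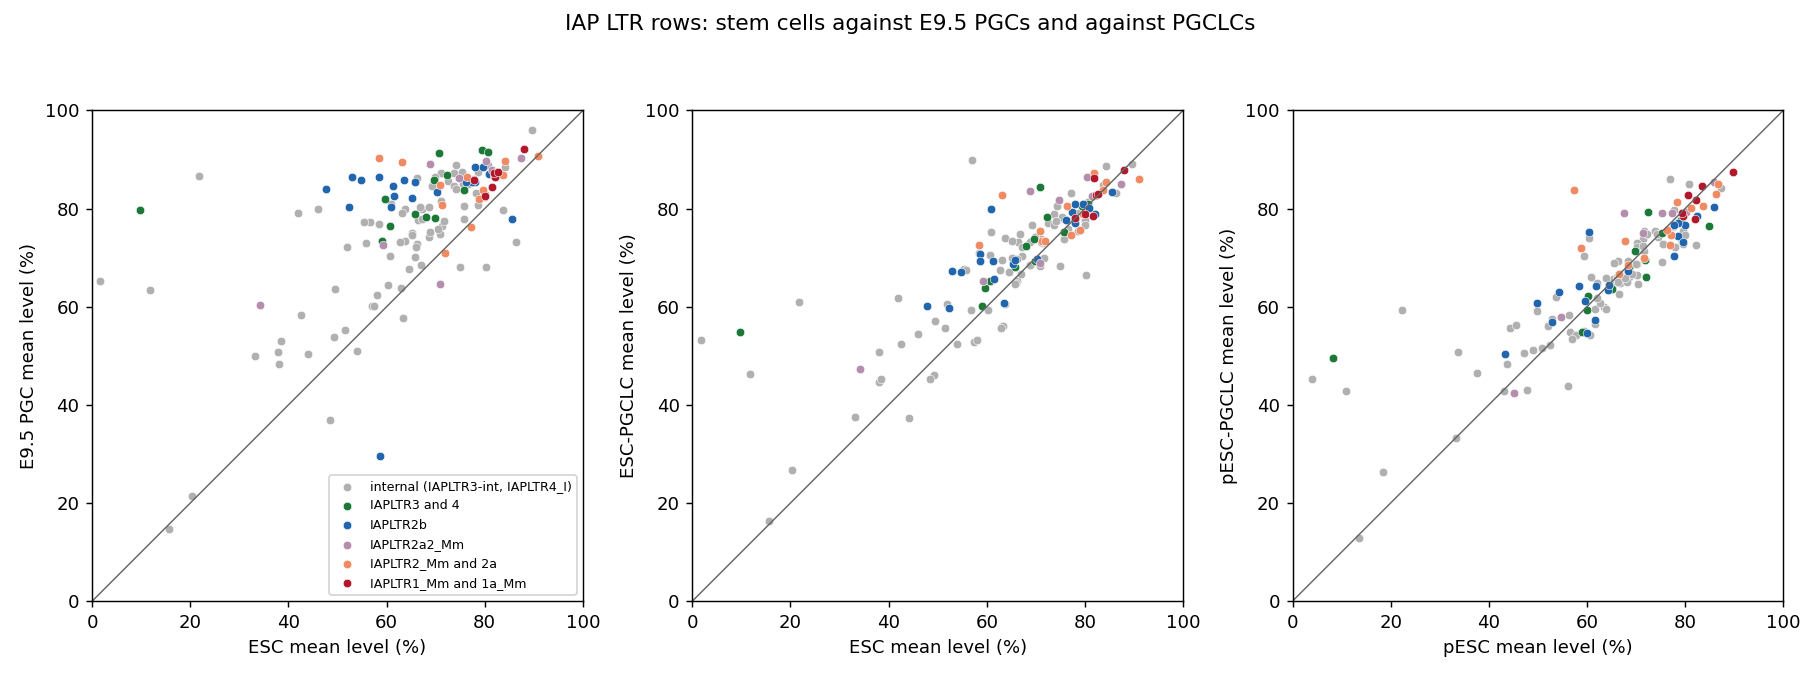
Mean methylation level in percent of each of the 146 rows in stem cells (horizontal) and germ cells (vertical), for ESCs against E9.5 PGCs, ESCs against ESC-PGCLCs and pESCs against pESC-PGCLCs, with the line of equal levels. Most rows of E9.5 PGCs lie above the line, and rows under 25% in stem cells lie far above it, except 2 that are low throughout.

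On the deposited scale, induction from stem cells left the median IAP row close to where it began, with exceptions among single rows. From ESCs to ESC-PGCLCs 9 of 146 rows (6.16%) rose and none fell, against 13.7% of all features called higher and 20.1% of other ERVK LTRs, with a median of 2.57 points. From pESCs to pESC-PGCLCs 6 rows (4.11%) rose and none fell, against 8.91% of all features and 13.6% of other ERVK LTRs, with a median of -0.36 points. After centring, which shifted the 2 comparisons by 1.17 and 0.92 log2 units, 4 rows were called higher and 1 lower in each. After centring 139 of 146 rows were lower in sign in each, with medians of -1.01 and -0.94 log2 odds, and 113 and 117 rows had an unadjusted p under 0.05. Before centring the medians were 0.16 and -0.024 log2 odds over the IAP rows and 0.26 and 0.17 over all features. Both shifts were larger than the change of the median feature, so most of the centred medians is the shift itself. The count for ESCs depended on single libraries: it was 27 without ESC replicate 1, 6 without ESC replicate 2 and 5 without either ESC-PGCLC library. No row was called for an origin-by-induction interaction, against 0.0365% of all features, and 2 rows had an unadjusted p under 0.05 for it.

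The rows with the greatest called gains were low in stem cells. Ranking by gain favours such rows, since a high level leaves little room to rise. IAPLTR4:278-345, a short stretch of the LTR, had 11.7% and 7.69% in ESCs and 9.60% and 6.78% in pESCs. It had 77.8% and 81.8% at E9.5 against 45.7% and 55.1% at E12.5. The ESC-PGCLC libraries had 54.5% and 55.1% and the pESC-PGCLC libraries 45.9% and 53.1%. Stem cells and germ cells did not overlap, and the gain was 45.1 points from ESCs (adjusted p = 0.000316) and 41.3 points from pESCs (adjusted p = 0.000497).

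IAPLTR3-int:2-1472, from the start of the internal part, behaved likewise. Its ESC libraries had 1.96% and 1.37% and its pESC libraries 2.67% and 5.13%, whereas the PGCs had 61.3% and 69.0% at E9.5, then 38.1% and 33.3% at E12.5. ESC-PGCLCs had 46.2% and 60.0%, and pESC-PGCLCs 54.3% and 36.4%. The gains were 51.5 points (adjusted p = 0.000261) and 41.4 points (adjusted p = 0.00115). Another 2 rows, IAPLTR3-int:19-1472 and IAPLTR3-int:1-996, chosen after their values were seen, start near the same place. The first had 14.8% and 8.67% in ESCs and 62.8% and 63.9% at E9.5, and the second 28.5% and 15.2% in ESCs and 86.6% and 86.7% at E9.5. Each of them rose in both inductions, as did IAPLTR3-int:1-1189, from 39.5% and 36.4% in ESCs to 47.9% and 53.6% in ESC-PGCLCs, a gain that turned to -0.43 log2 odds after centring (0.088 in the induction from pESCs, adjusted p = 0.729). In all, 6 rows were under 25% in both stem cell groups: IAPLTR4:278-345, IAPLTR3-int:2-1472, 19-1472 and 1-996, and the 2 rows at the end of the internal part that were low in all groups. Sharing the start of the internal consensus did not give a common gain: 18 of the 56 IAPLTR3-int rows start at position 1 or 2. Of these, IAPLTR3-int:1-1472, a row chosen here after its values were seen, was called in neither induction. It differed by 9.91 points from ESCs and by -12.2 points from pESCs.

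Among LTR rows with ordinary levels, IAPLTR4:1-341 rose from 74.5% and 67.0% in ESCs to 84.2% and 84.4% in ESC-PGCLCs (adjusted p = 0.0148), and IAPLTR2b:1-335 from 67.3% and 54.6% to 82.4% and 77.4% (adjusted p = 0.0225). After centring neither was called, with log2 odds differences of -0.07 and 0.14. IAPLTR2_Mm:1-474 rose from 57.6% and 56.9% in pESCs to 78.8% and 88.7% in pESC-PGCLCs (adjusted p = 0.0327, and 0.0732 after centring). Its ESC libraries had 72.9% and 53.3% and its ESC-PGCLC libraries 82.5% and 83.1%. The remaining 2 rows called for ESCs, IAPLTR3-int:1-2646 and IAPLTR3-int:1-4703, are named to complete the count, after their values were seen, and turned to -0.023 and -0.22 log2 odds after centring.

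Stem cells and PGCs were compared in the fit of all 12 libraries. That fit shares 1 estimate of the spread per row over all groups, as the fit of the inductions does over its groups. ESC libraries stood further apart than those of PGCs and PGCLCs, so p-values against ESCs may be too small. From ESCs to E9.5 PGCs 63 rows were higher and 2 lower, together 44.5% of the 146, against 42.9% of all features called in either direction and 72.3% of other ERVK LTRs called higher. With centring, which shifted this comparison by 1.85 log2 units, 5 rows were higher and 40 lower. Before centring the median difference was 0.76 log2 odds over the IAP rows and 0.68 over all features. The shift was larger than both, so centring turned the sign of any row that moved like the median feature. Called higher were 13 of 21 IAPLTR2b rows, 10 of 12 IAPLTR4 rows, 4 of 8 IAPLTR2a2_Mm rows, 3 of 11 IAPLTR2_Mm rows and the IAPLTR3 row. No row of IAPLTR1_Mm, IAPLTR1a_Mm or IAPLTR2a was called. IAPLTR4:278-345 had the largest difference, 70.1 points. IAPLTR2_Mm:375-475, which holds the end of the LTR, had 64.6% and 52.3% in ESCs and 90.7% and 90.0% at E9.5, a difference of 31.9 points, and both pESC libraries (65.3% and 52.4%) were also below every germ cell library. The 2 lower rows were internal. IAPLTR4_I:1-320 had 85.3% and 87.3% in ESCs and 79.2% and 67.1% at E9.5 (adjusted p = 0.00639), and IAPLTR3-int:5946-6801 had 85.3% and 75.1% against 65.0% and 71.2% (adjusted p = 0.0191). Leaving out ESC replicate 1 gave 84 rows and leaving out ESC replicate 2 gave 41.

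From ESCs to E12.5 PGCs 8 rows were higher and 32 lower, together 27.4%, against 17.2% of all features, with a median of -7.16 points. Other ERVK LTRs were called higher in 15.3% and lower in 10.8% of rows, with a median of -1.04 points. With centring 4 IAP rows were higher and 47 lower. Centring shifted this comparison by 0.76 log2 units, more than the median difference of all features, 0.052 log2 odds. Of the lower rows 18 were IAPLTR3-int, 5 IAPLTR2b, 4 IAPLTR4_I, 2 IAPLTR2_Mm, 2 IAPLTR4 and 1 IAPLTR1a_Mm. The higher rows were IAPLTR4:278-345, IAPLTR2_Mm:1-474, IAPLTR2_Mm:375-475 and 5 IAPLTR3-int rows. The count was 28 without ESC replicate 1 (12 higher and 16 lower), 69 without ESC replicate 2, and 21 and 18 without E12.5 replicate 1 and 2.

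The rows of 1 subfamily were far from uniform. Over the 146 rows, group means ran from 1.67% to 90.9% in ESCs and from 14.7% to 96.1% at E9.5. LTR-named rows with at least 80% numbered 18 of 63 in ESCs, 15 in pESCs, 50 at E9.5, 3 at E12.5, 23 in ESC-PGCLCs, and 12 for pESC-PGCLCs. Within IAPLTR2a2_Mm, the row 1-475 had 90.8% and 90.0% at E9.5 against 82.9% and 79.9% at E12.5, while 139-322, from the middle of the LTR, had 61.2% and 59.3% against 27.8% and 47.3%. The share kept by single rows ran from 83.3% to 93.2% in IAPLTR1a_Mm, 77.1% to 94.7% in IAPLTR2_Mm, 59.6% to 85.6% in IAPLTR4, 71.3% to 96.2% in IAPLTR4_I and 54.8% to 106% in IAPLTR3-int.

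Promoters of genes that act on IAP elements were measured in the same libraries. A list of 20 such genes held 17 with a promoter level in every library. Between E9.5 and E12.5, 5 of the 17 fell and none rose, against 32.2% of all promoters called. Dppa3, which keeps Uhrf1 and thereby Dnmt1 from DNA, went from 67.1% and 69.8% to 32.4% and 35.0% (adjusted p = 7.96e-05). Piwil2, a partner of piRNAs in germ cells, went from 70.1% and 69.0% to 44.2% and 45.0%, and Mael, which also acts in piRNA silencing, from 65.9% and 66.3% to 43.0% and 42.1%. The de novo methyltransferase Dnmt3a and its cofactor Dnmt3l differed by -19.5 and -17.5 points (adjusted p = 0.000389 and 0.000548). In ESCs Dppa3 had 2.55% and 3.61%, so its promoter, like the row IAPLTR3-int:2-1472, was nearly unmethylated in ESCs. From ESCs to E9.5 PGCs 6 of 17 promoters were called, all higher (Dnmt3a, Dnmt3l, Hells, Dppa3, Mael and Piwil2), against 31.7% of all promoters. Promoters of Trim28 and Uhrf1 were low in every group, at 1.18% and 1.32% in ESCs and 1.36% and 1.83% at E12.5. Expression of these genes was not used here.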

How the data were processed

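RRBS libraries were made from 12 samples, 2 in each of 6 groups, and grouped by their labels. The deposited files give, for each promoter, gene part or repeat row, a methylation level as a fraction (methylated CG calls over all CG calls), which the authors computed after alignment with Bismark 0.16.3 and Bowtie2 to mm10 (tools and build from the submitters' processing notes). The study's methods describe unique best alignments, a definition of duplicate reads, and a correction of levels for unconverted cytosine. The deposited levels include exact 0 and none below it, and whether they carry that correction is not stated in the sources used here. The pooling of copies into rows follows from the row names, and no coverage minimum is given in the sources used here. The files hold no read counts, so depth is unknown and no counting interval was given. The 12 files held between 144375 and 166476 features each.

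Levels were printed in percent. Differences were tested with limma 3.58.1 (R 4.3.3) on log2((level + 0.01)/(1 - level + 0.01)) over the whole table, and p-values were adjusted by Benjamini and Hochberg's method across every feature in the fit. A call needed an adjusted p under 0.05 and group means at least 10 points apart on the deposited scale. ESCs and pESCs were fitted in 4 libraries (148012 features), germ cell groups in 8 (137202), stem cells with PGCLCs in 8 (136848), and stem cells with PGCs in all 12 (133311). Means over rows, shares kept and margins over other ERVK LTRs were described without a test. The script was tested on simulated data. Within a subfamily, rows named were the 3 highest and 3 lowest in level and the 3 with the largest and smallest E12.5 minus E9.5 difference, and others are said to be chosen after their values were seen. The members and lists were chosen with earlier results of these data known. Alternatives changed the offset, the scale, the features tested, the centring, the libraries and the weighting of rows.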

Additional observations from a re-analysis of the deposited data

How the results depend on the processing

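Read depth is unknown, so an unstable level and a changed level cannot be told apart in a single row, and each group has 2 libraries. Direction and threshold side held in 148 of the recomputed summary values, 47 moved and 1 reversed. For single rows 376 were unchanged in both, 44 lost the call, 2 gained it and 12 reversed. The cause of these changes was not tested.

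Centring each library on its median gave 45 called rows for E12.5 against E9.5 PGCs, 29 for pESC-PGCLCs against E9.5, 14 and 0 for ESC-PGCLCs and pESC-PGCLCs against E12.5, 5 for ESC-PGCLCs against ESCs, and 45 for E9.5 PGCs against ESCs, where 40 were lower. It also reversed IAPLTR1_Mm:1-367 (0.071 log2 odds), IAPLTR2_Mm:1-474 (0.34), IAPLTR2a:318-411 (0.12), IAPLTR2a2_Mm:1-475 (0.084), IAPLTR3-int:5946-6801 (0.11) and IAPLTR3-int:5927-6801 (1.01, adjusted p = 0.00881, limma) at E12.5 against E9.5, and IAPLTR4:1-341 (-0.071), IAPLTR3-int:1-1189 (-0.43), IAPLTR3-int:1-2646 (-0.023) and IAPLTR3-int:1-4703 (-0.22) in ESC-PGCLCs against ESCs. The fit of all 12 libraries gave 0 rows for pESC-PGCLCs against E12.5 and 15 for ESC-PGCLCs against ESCs. Without E9.5 replicate 2 the difference of IAPLTR2b:1-293 was -0.29, and without replicate 1 it was 6.88 (adjusted p = 0.00111, limma). For IAPLTR3-int:5593-6801 these were 0.22 and -0.0029.

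Leaving out 1 library at a time gave 110 to 115 rows for E12.5 against E9.5, 29 to 34 for ESC-PGCLCs and 68 to 78 for pESC-PGCLCs against E9.5, 47 to 56 and 0 to 0 for the same groups against E12.5, and 0 to 1 between PGCLCs. The lone sample left in a group was assumed to vary like the other groups. The range was 5 to 27 for ESC-PGCLCs against ESCs, 4 to 5 for pESC-PGCLCs against pESCs, 18 to 69 for E12.5 against ESCs and 41 to 84 for E9.5 against ESCs.

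With each subfamily counted once the group means were 71.6% in ESCs, 71.0% in pESCs, 82.1% at E9.5, 66.2% at E12.5, 74.9% in ESC-PGCLCs, 72.1% in pESC-PGCLCs, the share kept was 80.6%, and the margin over other ERVK LTRs was 30.2 points in ESCs and in pESCs, 22.9 at E12.5, 21.8 in ESC-PGCLCs and 23.4 in pESC-PGCLCs. Medians over rows were 67.5% in pESCs, 81.3% at E9.5, 72.3% in ESC-PGCLCs and 67.8% in pESC-PGCLCs, with 74.9% kept and margins of 28.4 points in ESCs and 15.9 at E9.5. All rows with a level gave 77.7% at E9.5 and 70.1% in ESC-PGCLCs, 77.3% kept, and margins of 29.5 points in ESCs, 29.7 in pESCs, 18.0 at E9.5, 23.0 in ESC-PGCLCs and 22.7 in pESC-PGCLCs. Without IAPLTR2b:1-293, an alternative chosen after seeing the data, the E9.5 mean was 77.6%.

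Replicate numbers gave no shared source in the labels. Same-numbered libraries correlated at 0.43 in their deviations between ESCs and pESCs, at 0.14 between E9.5 PGCs and ESC-PGCLCs, and between -0.06 and 0.07 otherwise. With the replicate number as a block, 118 rows were called for E12.5 against E9.5, 32 and 72 for ESC-PGCLCs and pESC-PGCLCs against E9.5, 57 and 12 against E12.5, 8 and 6 for the inductions, 36 and 68 for E12.5 and E9.5 against ESCs, and 0 in the other comparisons.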

Other observations

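Another 78 rows carried an IAPLTR name but lacked a level in at least 1 library, 17 of them having a level in a single library and 4 lacking a level in just 1. Of these, 23 had levels in all 4 PGC libraries. Their mean was 75.3% at E9.5 and 61.3% at E12.5, and 22 of the 23 were lower at E12.5.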
